A study of Mus musculus with 6 samples.

Results

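RNA-seq counts of blood vascular endothelial cells (BECs) from E15.5 mouse embryo skin were compared between a control (Cont) library and a Dot1l conditional knockout (cKO) library. The genes described are those with at least 30 raw reads in the 2 skin libraries together, which were 13745 of the 24421 genes of the count table, or 56.3%. They held 99.8% of the reads of each library. The cKO embryos carried Tie2-Cre and Dot1l 2f/2f, and the Cont embryos were littermates without Tie2-Cre that carried Dot1l 2f/2f as well, so the floxed allele was common to both groups. The GEO labels call these genotypes Dot1l KO and wild type. RNA of 2 to 3 embryos was pooled for each library, and each genotype has 1 library. No difference could therefore be set against a spread between replicates. Cells were sorted as negative for a pair of macrophage markers, the proteins of Adgre1 and Ptprc (CD45), negative for the lymphatic marker Lyve1 and positive for CD31.

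Dot1l encodes the enzyme that methylates a lysine in the core of histone H3 along transcribed genes. Tie2-Cre recombines in endothelium and also in much of the blood lineage, because Tie2 is active in their common precursors. Embryonic skin at this age holds a growing vessel network beside resident macrophages, maturing mast cells, dermal fibroblasts and an epidermis that has begun to stratify, and RNA of each of these cells can be told by its own marker genes. In RNA of a whole sorted population, fewer cells of a type and less RNA per cell cannot be told apart.

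The libraries summed to 8863349 reads for Cont and 11084686 reads for cKO. Counts were divided by size factors of 0.877 and 1.14 from the median of ratios method, and the results are called normalised counts. Each log2 ratio is cKO over Cont, and its 95% interval was computed from the reads by the exact method of Clopper and Pearson. These intervals cover counting error only, since the reads carry no molecular identifiers and are not independent molecules. The median half-width of the interval was 1.01 on the log2 scale for genes with 30 to 60 reads and 0.13 for genes with at least 1000 reads.

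Dot1l itself was read first, as a check of the labels. It had 762 reads in Cont and 944 reads in cKO, a log2 ratio of −0.07 with an interval from −0.21 to 0.07. The count of the targeted gene was thus not lower in cKO, and a count over the whole gene does not separate the floxed exon from the rest. The study checked the knockout by RT-qPCR of Dot1l, which was not analysed here. The second library is therefore called the cKO-labelled library below. The other 17 measured genes of the Dot1l complex and elongation list also stayed within 2-fold, with a median of 0.03 over all 18 members.

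Endothelial genes were read in both libraries, but genes of the markers that the sort was meant to remove were read as well. Pecam1, which encodes CD31, had 1178 counts per 1000000 reads (CPM) in Cont and 750.3 in the cKO-labelled library. Adgre1, which encodes an adhesion receptor of macrophages, had 1719 and 3411 reads, and Ptprc, which encodes CD45, had 1206 and 2340 reads. Lyve1, which is carried by lymphatic endothelium and by some tissue macrophages, had 9105 and 19959 reads. All 3 genes had a higher CPM in the cKO-labelled library. The macrophage mannose receptor Mrc1 had 22493 and 43350 reads, more than Pecam1 with 10441 and 8317 reads. The 68 macrophage genes listed below summed to 11300 CPM in Cont and 18472 CPM in the cKO-labelled library. The 42 pan-endothelial genes summed to 13068 and 8770 CPM. These sums are not shares of cells, since the lists differ in size and genes differ in level. Xist had 16143 and 12852 reads and the Y-linked Ddx3y 839 and 1106 reads, so both pools held RNA of embryos of both sexes.

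Most genes were close between the 2 libraries. Of the 13745 genes, 12453 (90.6%) lay within 2-fold of each other, the median log2 ratio was −0.01 and the middle 50% of genes ranged from −0.28 to 0.30. Past 3-fold, the fold used by the study, 349 genes (2.54%) were higher in the cKO-labelled library and 122 genes (0.888%) were lower. Past 2-fold, 886 genes (6.45%) were higher and 406 (2.95%) were lower. A gene is said to have risen or fallen only where its ratio passed 2-fold, and is called only where it passed 3-fold. Of the called genes, 122 higher and 52 lower ones reached 100 normalised counts, and 133 and 49 had even the nearer limit of the interval past 3-fold.

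The balance of higher and lower calls depended on the scaling. When the libraries were scaled to put the median of the pan-endothelial genes at 0, which added 0.53 to every log2 ratio, 803 genes were called higher and 55 lower. When the median of the macrophage genes was put at 0 instead, which took 0.61 from every ratio, 171 were higher and 432 lower. Both shifts apply to every value below. At the threshold of the gene set, 53 genes with exactly 30 reads had a median of 0.21 with 11 past 3-fold, and the 47 genes with 29 reads just outside it had a median of 0.12 with 9 past 3-fold. A gene with few reads in 1 library passes this minimum through the other library, in which it is high. Large ratios of such genes, and counts that include them, are therefore tied to the minimum.

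**Figure D1:**
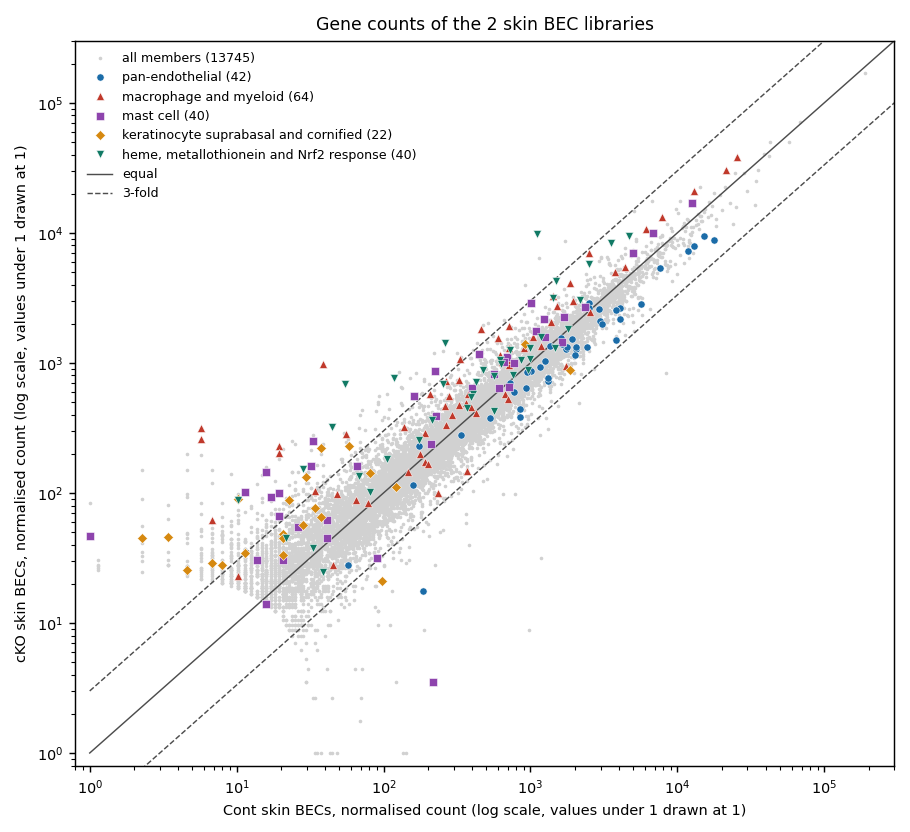
Normalised counts of each gene in the Cont library (x axis) and the cKO-labelled library (y axis), both on log scales, 1 point per gene. Grey points are all 13745 genes, coloured points are members of 5 gene lists, the solid line marks equal counts and the dashed lines 3-fold. Pan-endothelial genes lie on or under the solid line with few exceptions, and macrophage, mast cell and suprabasal keratinocyte genes lie mostly above it.

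The genes were then grouped by 44 lists of markers and pathways. Of these, 40 were fixed from the labels and general knowledge, with earlier results of these data known. Among these 40, 6 had a median above 0.5. They were suprabasal keratinocyte (1.41, over 22 of 68 members), glycolysis and hypoxia (0.71), melanocyte (0.69), mast cell (0.68), macrophage (0.61) and cartilage (0.58). The suprabasal median is not read as a result, since 46 of the 68 genes were under 30 reads. Rare members passed this minimum through the library in which they are high, and the log2 ratio of the summed counts of all 68 was 0.18. The 7 lists with a median below −0.5 were granulocyte (−1.29), venous endothelial (−0.79), adipocyte (−0.79), X-inactivation (−0.71), claudins and junctions (−0.66), Hox (−0.56) and pan-endothelial (−0.53). Each median stands against −0.01 over all 13745 genes. Counts of list members past 2-fold stand against 6.45% of all genes higher and 2.95% lower, and counts past 3-fold against 2.54% and 0.888%. The melanocyte, granulocyte and X-inactivation lists had 7, 8 and 3 measured members. Kit and Mitf are on both the melanocyte and the mast cell list, so these lists are not separate. With a minimum of 100 reads the X-inactivation median was −0.31 and the granulocyte median −0.63. All 4 measured Y-linked genes were higher, with a median of 0.43, and the part of the mix of sexes in the pools was not tested.

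**Figure D2:**
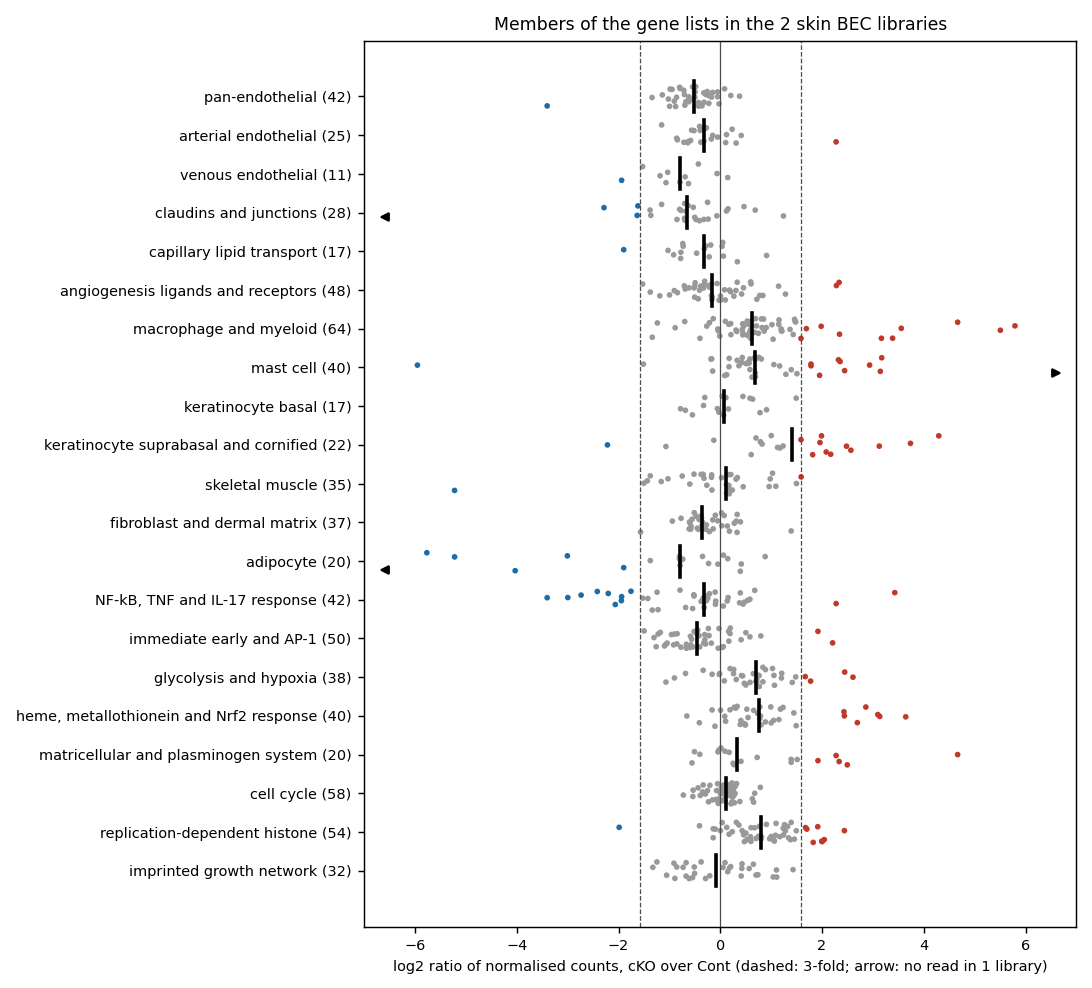
Log2 ratio (cKO over Cont, x axis) of every measured member of 21 gene lists (rows, with the number of members). Each dot is a gene, coloured where it passed 3-fold, the black bar is the median of the list, dashed lines mark 3-fold and arrows mark genes without a read in 1 library. The adipocyte and NF-kB lists have long tails to the left, and the cell cycle list has no member past 2-fold.

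Endothelial genes were lower in the cKO-labelled library, most of them by less than 2-fold. Of 42 pan-endothelial genes, 39 had a lower normalised count, 4 fell past 2-fold and none rose past it, with a median of −0.53 that is 0 by construction under the pan-endothelial scaling. Together they took 13068 CPM in Cont and 8770 CPM in the cKO-labelled library. The 4 that fell were Clec14a, a lectin-like receptor of sprouting vessels (3341 and 1712 reads, log2 ratio −1.34), Ramp2, the co-receptor for adrenomedullin (743 and 438 reads, −1.14), Gpr4, a proton-sensing receptor (50 and 32 reads, −1.02), and Sele. Kdr, the main receptor for VEGF-A, had 15527 and 10102 reads and an interval from −1.03 to −0.96, just short of 2-fold.

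Other defining genes of the lineage differed less. Cdh5, which encodes VE-cadherin, had 13396 and 10734 reads with a ratio of −0.70, and Pecam1 had a ratio of −0.71. Egfl7, a secreted endothelial factor, had 2207 and 3307 reads with a ratio of 0.21. Eng, a TGF-beta co-receptor, had 2193 and 3019 reads with a ratio of 0.08, and Vcam1 had 154 and 260 reads with a ratio of 0.38. These 3 were the members with a higher count, and none of them came near 2-fold. The genes of the list therefore ran from Clec14a at −1.34 to Vcam1 at 0.38 once Sele at −3.40 is set aside.

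Venous genes lay further down than arterial genes. Of 11 venous genes, 10 had a lower count and 5 fell past 2-fold, with a median of −0.79 that stayed below 0 (−0.27) under the pan-endothelial scaling. Aplnr, the apelin receptor of veins and sprouts, had 4411 and 1987 reads with a ratio of −1.53 (interval −1.61 to −1.45). Nr2f2, the transcription factor that specifies veins, had 1202 and 762 reads with a ratio of −1.04. Selp, which encodes P-selectin, had 130 and 44 reads, a ratio of −1.94. The 25 arterial genes had a median of −0.33, which turned to 0.20 under the pan-endothelial scaling. Gja4, a connexin of arteries, fell from 495 to 289 reads (−1.15), whereas the Notch ligand gene Dll4 had 716 and 701 reads (−0.41) and the transcription factor gene Sox17 had 640 and 801 reads (−0.05).

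**Figure D3:**
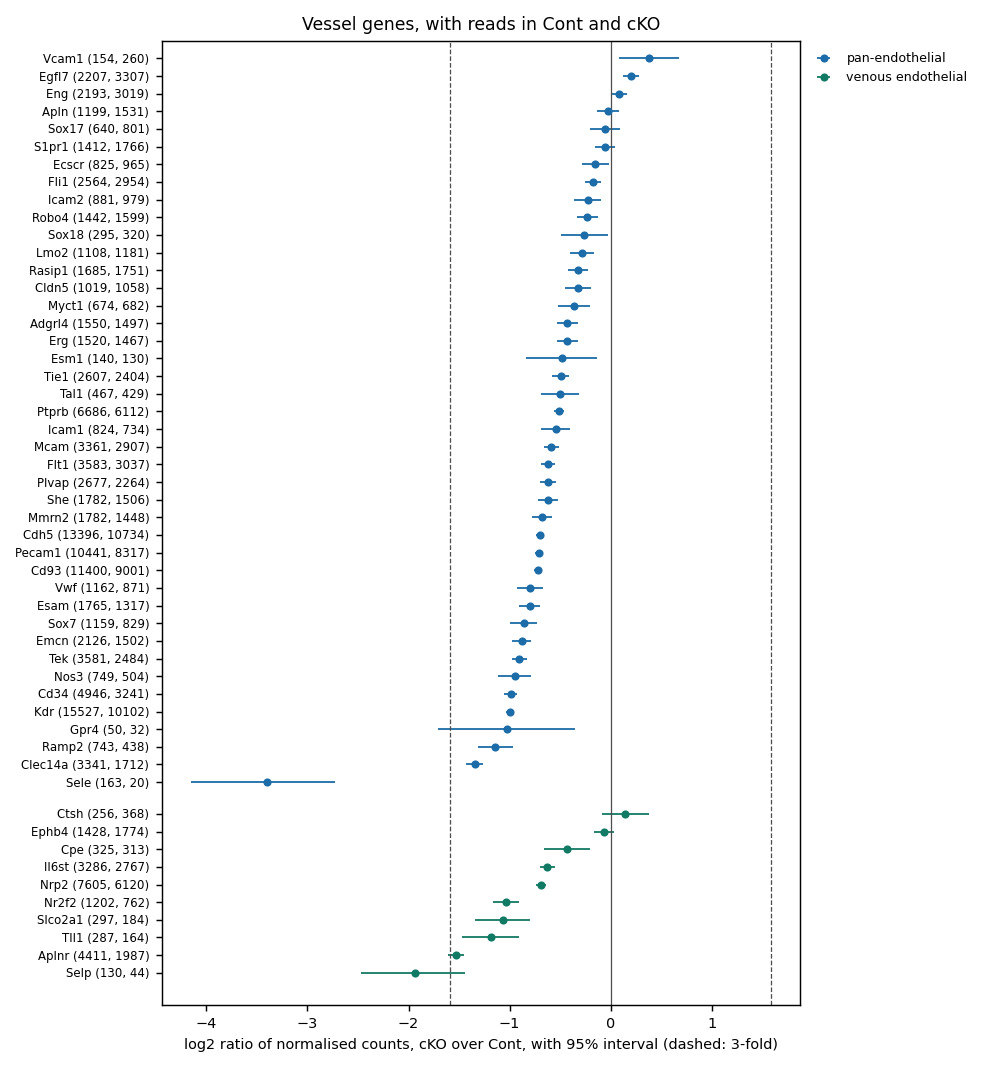
Log2 ratio (cKO over Cont, x axis) of the 42 pan-endothelial genes and the venous genes not among them, 1 gene per row with its reads in Cont and in the cKO-labelled library. Points are the ratios, bars the exact 95% counting intervals and dashed lines 3-fold. The pan-endothelial genes form an even slope from Vcam1 at 0.38 to Clec14a at −1.34, with Sele apart at −3.40.

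Edn1 was the exception among arterial genes. It encodes endothelin-1, a vasoconstrictor peptide, and had 224 reads in Cont and 1410 in the cKO-labelled library, a ratio of 2.28. A pair of ligands that act on vessels rose as well. Angpt2, an antagonist ligand of Tie2, rose from 754 to 2380 reads (1.28), and Bmp6, a ligand that reports iron stores, from 22 to 139 reads (2.28). Tek, which encodes Tie2 itself, had 3581 and 2484 reads (−0.91), and Angpt1, the activating ligand, had 143 and 131 reads (−0.50). Of the 48 angiogenesis genes, 4 (8.33%) rose and 3 (6.25%) fell past 2-fold, against 6.45% and 2.95% of all genes. The median of −0.17 turned to 0.35 under the pan-endothelial scaling.

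Junction genes were lower as a group. Of 39 listed genes, 11 were under 30 reads. Of the 28 measured, 7 fell past 2-fold, 4 of them past 3-fold, and 1 rose past 2-fold. The median was −0.66, and −0.13 under the pan-endothelial scaling. Cldn12, a claudin outside the classic barrier-forming group, had 294 and 123 reads, a ratio of −1.64. Jam2, a junctional adhesion molecule of endothelium, had 722 and 360 reads (−1.38), and Cdh13, a cadherin anchored without a cytoplasmic tail, had 762 and 384 reads (−1.37). Cldn5, the main claudin of vessels, had 1019 and 1058 reads with a ratio of −0.32. The tight junction scaffold gene Tjp1 had 7833 and 6365 reads and a ratio of −0.68. Pcdhb11 had 30 reads in Cont and none in the cKO-labelled library, at least 13-fold lower against a floor of 3 reads. It passed the minimum through Cont alone, so its large fall is tied to that minimum. Protocadherin genes of its cluster resemble each other and reads could have been split among them.

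Among genes for lipid uptake by capillaries, 2 of 17 fell past 2-fold. Cav1, the coat protein of caveolae, fell from 21106 to 13443 reads (−1.03), and the water and glycerol channel gene Aqp7 from 89 to 31 reads (−1.90). Cd36, a fatty acid receptor, had 9758 and 6706 reads (−0.92). The median of the list, −0.31, turned to 0.21 under the pan-endothelial scaling. Prox1, the transcription factor that defines lymphatic endothelium, had 1304 and 883 reads (−0.94), opposite in sign to Lyve1 (0.75).

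Macrophage genes were higher in the cKO-labelled library. Of 68 listed genes, 64 reached 30 reads, 53 of these were higher, 22 rose and 2 fell past 2-fold, and 10 were past 3-fold, all higher. Their summed level was 11300 CPM in Cont and 18472 CPM in the cKO-labelled library, and none of the listed genes was without reads in both. The median of 0.61 is 0 by construction under the macrophage scaling. This difference accompanied every gene group described below, and its part in their ratios was not tested. The ratios varied from gene to gene. Several widely shared macrophage markers lay near the median, such as Mrc1 (0.57), Adgre1 (0.61), Ptprc (0.58) and F13a1, a coagulation factor subunit gene of resident macrophages with 18687 and 34968 reads (0.53).

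Other members had larger ratios. Those with few reads in Cont, such as Marco, Gpnmb and Vsig4, passed the minimum through the cKO-labelled library, so the list's counts past 2-fold and 3-fold are tied to it. With a minimum of 1 read the median of the macrophage list was 0.65. Spp1, which encodes osteopontin, had 34 and 1121 reads, a ratio of 4.67 (interval 4.17 to 5.20). Trem2, a lipid-sensing receptor, had 17 and 260 reads, a ratio of 3.56 (interval 2.85 to 4.36). Lgals3, a galectin of activated phagocytes, had 49 and 323 reads (2.34). Marco, a scavenger receptor gene, had 5 and 360 reads (5.79), Gpnmb, a glycoprotein gene of lysosome-rich phagocytes, 5 and 295 reads (5.50), and Clec4d, a lectin receptor gene, 17 and 231 reads (3.39). Vsig4, a complement receptor of tissue macrophages, had 6 and 70 reads (3.17), and Fcgr2b, the inhibitory receptor for IgG, had 407 and 2089 reads (1.98). Cd300ld, a receptor of the CD300 family, had 6 and 170 reads (4.45) and was not on the list. Complement genes C1qb (622 and 2181 reads, 1.43) and C1qc (529 and 1776 reads, 1.37) and the lysosomal protease gene Ctsd (2193 and 7952 reads, 1.48) rose past 2-fold.

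Other myeloid genes went the opposite way. The fractalkine receptor gene Cx3cr1 had 1527 and 1072 reads (−0.89), and Ccl7, a monocyte chemokine gene, fell from 325 to 167 reads (−1.34). Cd14, the co-receptor for bacterial lipopolysaccharide, fell from 207 to 114 reads (−1.24). The scavenger receptor gene Cd163 had 2235 and 2808 reads (−0.05). Of 20 granulocyte and monocyte genes, 12 were under 30 reads and 8 were measured. Of these 8, 5 fell past 2-fold and 2 rose. The neutrophil peroxidase gene Mpo had 26 and 4 reads (−3.08) and passed the minimum through Cont. The counts of this list are tied to the minimum to that extent. With a minimum of 1 read its median was −0.73 in place of −1.29.

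Mast cell genes were present in both libraries and higher in the cKO-labelled one. Of 44 listed genes, 40 were measured, 35 were higher, 15 rose and 2 fell past 2-fold, and the summed level was 4115 CPM in Cont and 6197 CPM in the cKO-labelled library. The median of 0.68 was 0.07 under the macrophage scaling, so the mast cell and macrophage lists moved by much the same amount. The most abundant granule genes stayed within 2-fold. Cpa3, the mast cell carboxypeptidase, had 10969 and 19211 reads (0.43). Cma1, a connective tissue chymase, had 5953 and 11453 reads (0.57), and Hdc, the enzyme that makes histamine, had 4344 and 8021 reads (0.51). Tpsb2, a tryptase of connective tissue mast cells, had 1439 and 1664 reads (−0.17).

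Some proteases of mucosal mast cells and basophils had larger ratios. Mcpt1, Mcpt2, Mcpt8 and Gzmb had few reads in Cont and passed the minimum through the cKO-labelled library, in which they were high. They are part of the mast cell counts above, which are tied to the minimum to that extent. With a minimum of 1 read the median of the mast cell list was 0.67. Mcpt2, a mucosal mast cell protease, had 15 and 106 reads (2.44, interval 1.66 to 3.33). Mcpt1, its neighbour and close relative, had no read in Cont and 53 in the cKO-labelled library, at least 13.6-fold higher against a floor of 3 reads. Mcpt8, a basophil protease, had 14 and 164 reads (3.17), and Gzmb, which encodes granzyme B, had 10 and 115 reads (3.15). These 4 genes lie within 1 cluster on chromosome 14, between positions 56017971 and 56262260 of mm10, as does Mcpt4 with 389 and 1329 reads (1.39). The proteases resemble each other, so reads of one can be counted for another. Cma1, which lies on the same chromosome at 55941451 to 55944675, did not pass 2-fold.

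Outside the protease cluster, mast cell and basophil genes went both ways. The activating receptor genes Cd200r3 (29 and 288 reads, 2.93) and Cd200r4 (8 and 160 reads, 3.94), on chromosome 16, are known from basophils and mast cells and passed 3-fold. Tph1, the enzyme that makes serotonin outside the brain, had 28 and 182 reads (2.32), and the steroid-forming enzyme gene Cyp11a1 had 196 and 985 reads (1.95). Il1rl1, the receptor for interleukin-33, had 888 and 3277 reads (1.51). Mrgprb2, the receptor through which connective tissue mast cells sense peptides, fell from 79 to 36 reads (−1.51). Its relative Mrgprb1 fell the most on the mast cell list, from 191 to 4 reads (−5.96, interval −7.85 to −4.58). Of the 14 measured genes of a basophil list chosen after the values were seen, 4 were past 3-fold higher, 1 was past 3-fold lower, and the median of 0.58 turned to −0.03 under the macrophage scaling. Il4 (18 and 35 reads, 0.58) and Il13 (36 and 70 reads, 0.58), cytokine genes of these cells, did not pass 2-fold.

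Lymphoid and antigen-presenting genes were near the floor of measurement. Cd3e, a subunit of the T cell receptor complex, had 39 reads in Cont and 1 in the cKO-labelled library, a ratio of −5.66 with an interval from −11.00 to −3.10. Nkg7, a gene of cytotoxic granules, had 5 and 42 reads (2.69). Of 10 measured MHC class II genes, 3 rose past 2-fold, namely H2-Ab1 (31 and 126 reads, 1.65), the invariant chain gene Cd74 (58 and 209 reads, 1.47) and the class II transactivator gene Ciita (11 and 36 reads, 1.33). H2-Aa (28 and 67 reads, 0.88) and H2-Eb1 (38 and 41 reads, −0.27), which encode other chains of these molecules, did not.

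Genes for handling heme, metals and oxidants made some of the largest rises among abundant genes. Hmox1, the enzyme that opens heme, had 971 reads in Cont and 11072 in the cKO-labelled library, a ratio of 3.13 (interval 3.04 to 3.23) that was higher than that of every other gene with at least 1000 normalised counts. It lies on chromosome 8 at 75093621 to 75100589 of mm10. The metallothionein genes, whose small proteins bind zinc and copper, rose too. Mt1 had 229 and 1613 reads (2.44), and Mt2 had 48 and 780 reads (3.64). In this list, chosen after the values were seen, 13 of 40 measured genes rose past 2-fold, none fell past it, 7 were past 3-fold, and the median of 0.75 stayed above 0 (0.14) under the macrophage scaling.

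The iron branch moved with Hmox1 by a smaller factor. Slc40a1, which encodes the iron exporter ferroportin, rose from 1318 to 4816 reads (1.49), and the ferritin heavy chain gene Fth1 from 3113 to 9506 reads (1.23). The light chain gene Ftl1 had 4122 and 10709 reads (interval 0.95 to 1.05), just short of 2-fold. Spic, the transcription factor of iron-recycling macrophages, had 19 and 51 reads (1.05, interval 0.26 to 1.89). Bach1, the heme-sensing repressor of Hmox1, had 1587 and 2069 reads and a ratio of 0.00 (interval −0.09 to 0.10).

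Targets of the oxidant-responsive factor Nrf2 were mixed. Srxn1, which restores oxidised peroxiredoxins, had 104 and 874 reads (2.69), and Akr1b8, an aldo-keto reductase gene, 39 and 368 reads (2.86). Slc7a11, the cystine importer, had 25 and 175 reads (2.43), and Osgin1 had 9 and 100 reads (3.10). These 4 passed 3-fold. Gclm, the modifier subunit for glutathione synthesis, rose from 223 to 789 reads (1.45), and the peroxidase gene Prdx1 from 2212 to 6512 reads (1.18). Nqo1, a quinone reductase often used to read this pathway, had 29 and 43 reads (0.19, interval −0.52 to 0.92), and Nfe2l2, which encodes Nrf2, had 876 and 1493 reads (0.39). Macrophage markers moved with these genes (64 measured, 53 higher, 11300 and 18472 CPM summed, none without reads in both libraries), and their part in the result was not tested.

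The upstream sequences of the pair of metallothionein genes are shown because the genes are neighbours on chromosome 8 that rose together. They are the 250 bases before each RefSeq start in GRCm38.p6, with capitals marking matches to the core of the metal response element, TGCACNC or TGCGCNC, on either strand. A match is a description and not a site in use, and 21.4% of 32851 mouse promoter windows hold one. Each printed window was marked for 1 motif only.
Mt1, chr8:94178839-94179088, plus strand: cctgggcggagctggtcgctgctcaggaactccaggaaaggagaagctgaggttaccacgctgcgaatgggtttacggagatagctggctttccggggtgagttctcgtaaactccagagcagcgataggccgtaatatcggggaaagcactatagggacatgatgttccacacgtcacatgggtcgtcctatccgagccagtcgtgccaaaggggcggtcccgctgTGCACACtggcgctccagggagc
Mt2, chr8:94172368-94172617, plus strand: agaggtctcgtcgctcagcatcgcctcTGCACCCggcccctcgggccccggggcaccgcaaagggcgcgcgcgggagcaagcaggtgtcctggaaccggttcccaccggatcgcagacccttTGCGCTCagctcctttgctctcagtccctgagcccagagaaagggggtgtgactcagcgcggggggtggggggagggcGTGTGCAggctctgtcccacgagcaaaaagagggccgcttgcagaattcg
Mt2 had 3 matches and Mt1 had 1. In the heme, metallothionein and Nrf2 list, 9 of 34 genes with a promoter entry held the antioxidant response core TGACNNNGC, against 11.5% of 27025 genes. The first share depends on the choice of the list and on sequence, and not on the direction of any change.

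Glycolytic and hypoxia-responsive genes were higher in the cKO-labelled library. Of 38 members, 31 were higher, 11 rose and 1 fell past 2-fold, and the median of 0.71 was 0.09 under the macrophage scaling. Adm, which encodes the vessel peptide adrenomedullin, had 63 and 499 reads (2.61). Slc16a3, the lactate exporter MCT4, had 80 and 566 reads (2.44). The mitophagy receptor gene Bnip3 had 178 and 791 reads (1.77), and the glucose transporter gene Slc2a3 had 158 and 653 reads (1.67). These 4 passed 3-fold.

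Other members rose by less. Hk2, the first enzyme of glycolysis, rose from 342 to 1241 reads (1.48), Pfkfb3, which drives its main control step, from 310 to 926 reads (1.20), and Aldoa from 2563 to 6915 reads (1.05). Ldha, which makes lactate, had 3034 and 6475 reads (0.72), and the VEGF-A gene Vegfa 200 and 464 reads (0.84). The transcription factors that head the response were not higher. Hif1a had 3890 and 4518 reads (−0.16), and Epas1, the endothelial HIF-2 alpha gene, had 2892 and 2338 reads (−0.68). Car9, a membrane carbonic anhydrase often used to read hypoxia, was the member that fell, with 21 and 13 reads (−1.07) and an interval that began at −2.19 and ended close to 0.

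The window upstream of Slc16a3 is shown because it held a pair of hypoxia response cores, ACGTG on either strand, near the start. This core was in 16.6% of the 32851 windows, and in 20 of the 36 genes of the glycolysis and hypoxia list with a promoter entry, against 18.5% of all 27025 genes. The share in the list depends on the choice of its genes and on sequence alone, and not on the counts.
Slc16a3, chr11:120948817-120949066, plus strand: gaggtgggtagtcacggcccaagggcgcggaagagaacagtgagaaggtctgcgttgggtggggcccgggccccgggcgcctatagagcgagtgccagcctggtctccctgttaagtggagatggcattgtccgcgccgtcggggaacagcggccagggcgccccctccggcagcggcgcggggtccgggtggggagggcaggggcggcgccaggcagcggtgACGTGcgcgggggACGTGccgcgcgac

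Some secreted matrix and plasminogen genes rose, in a list chosen after the values were seen. Such a list cannot show that the group rose. Of 20 measured members, 8 rose past 2-fold, 5 of them past 3-fold, and 12 stayed within 2-fold. The median of 0.34 turned to −0.28 under the macrophage scaling. Tnc, which encodes tenascin-C, a matrix protein of wounds and developing tissue, had 1001 and 7338 reads, a ratio of 2.50 (interval 2.40 to 2.59). Thbs1, which encodes the antiangiogenic protein thrombospondin-1, had 1504 and 9862 reads, a ratio of 2.34 (interval 2.26 to 2.41). Ctgf, a target of YAP and TGF-beta signalling, had 276 and 1356 reads (1.92). Both Tnc and Thbs1 were among the 10 largest rises at 1000 normalised counts or more.

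The change was uneven within the matrix. Fn1, the fibronectin gene, rose from 5894 to 20102 reads (1.39), and Plau, the urokinase gene, from 797 to 2720 reads (1.39). Cyr61, a close relative of Ctgf, had 1687 and 2152 reads (−0.03). Postn, which encodes periostin, had 2895 and 2557 reads (−0.56), and Sparc had 15952 and 14565 reads (−0.51). Of 37 fibroblast and dermal matrix genes, Fn1 was the 1 that rose past 2-fold and Eln, the elastin gene, with 986 and 432 reads (−1.57), the 1 that fell. The median of that list, −0.35, turned to 0.17 under the pan-endothelial scaling, and its summed level was 6600 CPM in Cont and 6348 CPM in the cKO-labelled library.

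Many inflammatory genes were lower in the cKO-labelled library. Of 42 measured genes of the NF-kB, TNF and IL-17 list, 14 fell and 2 rose past 2-fold, and 9 fell past 3-fold, whereas the median of −0.33 turned to 0.20 under the pan-endothelial scaling. Sele, the endothelial selectin that catches leukocytes, had 163 and 20 reads, a ratio of −3.40 (interval −4.15 to −2.73). The neutrophil chemokine genes Cxcl2 (689 and 112 reads, −3.00) and Cxcl1 (321 and 78 reads, −2.42) fell with it. Il1b, the interleukin-1 beta gene, had 77 and 15 reads (−2.74), and Ptgs2, the inducible cyclooxygenase gene, had 418 and 141 reads (−1.95). Each of these 5 would stay past 3-fold with the shift of 0.53 except Ptgs2.

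Other members of the list varied. Socs3, a feedback inhibitor of cytokine signalling, had 1021 and 317 reads (−2.07), and the transcription factor gene Irf1 had 1116 and 429 reads (−1.76). Nfkbiz, an inducible co-regulator, had 3867 and 1871 reads (−1.43), and Tnfaip3, the feedback inhibitor A20, had 1410 and 784 reads (−1.22). The subunit genes Nfkb1 (1032 and 1259 reads, −0.09), Nfkb2 (482 and 520 reads, −0.27) and Relb (104 and 126 reads, −0.10) stayed near the median of all genes. Tnf itself had 149 and 264 reads (0.45). Il1a, the gene of the other interleukin-1, was higher with 2 and 28 reads, a ratio of 3.43 with a wide interval from 1.44 to 6.54. In the related cytokine receptor and STAT list, 5 of 32 genes fell past 2-fold and none rose past it, including the receptor genes Lifr (3250 and 1748 reads, −1.27) and Osmr (325 and 185 reads, −1.19), while Stat3 had 1443 and 1551 reads (−0.27).

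**Figure D4:**
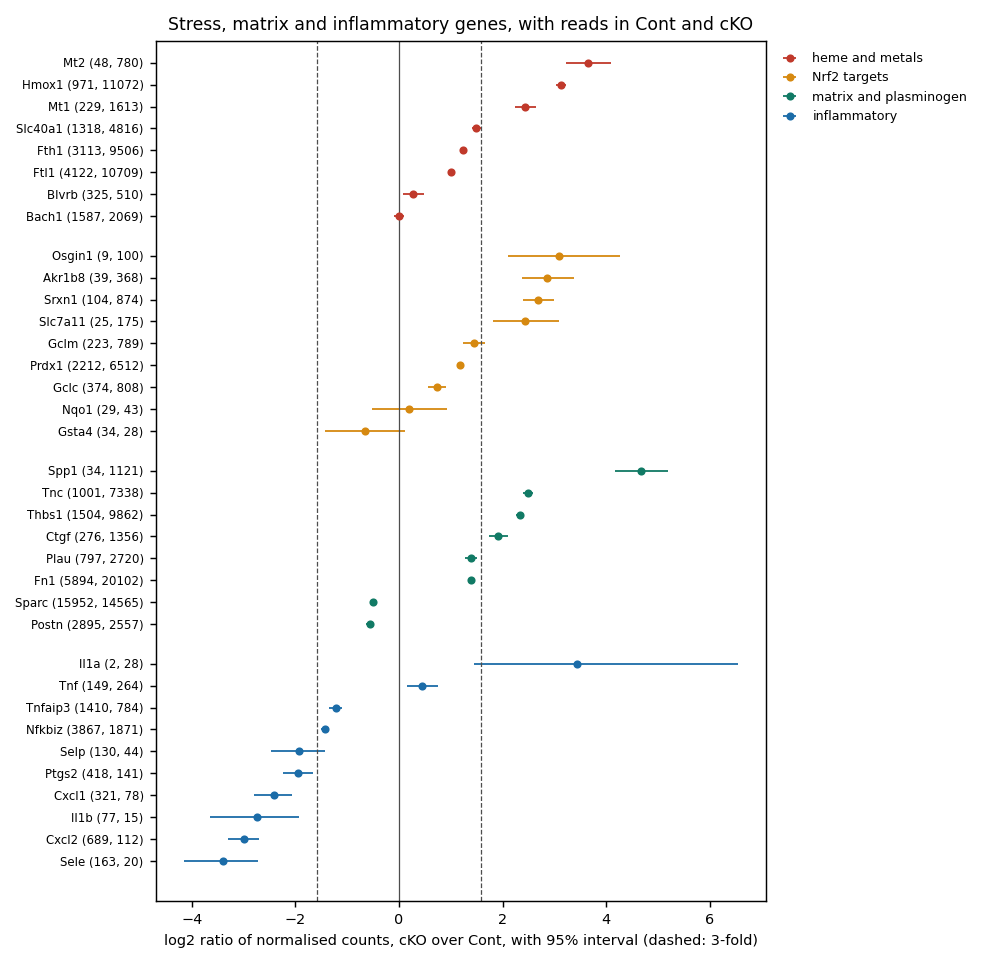
Log2 ratio (cKO over Cont, x axis) of genes for heme and metals, Nrf2 targets, matrix and plasminogen, and inflammation, 1 gene per row with its reads in Cont and in the cKO-labelled library. Points are the ratios, bars the exact 95% counting intervals and dashed lines 3-fold. Mt2, Hmox1, Osgin1 and Spp1 lie past 3 and Sele past −3, and the inflammatory gene Il1a lies past 3 on the other side from Sele. Bach1 at 0.00 and Nqo1 at 0.19 lie near 0, and Postn, Sparc and Tnf lie within 2-fold.

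The windows upstream of Cxcl1 and Cxcl2, neighbours on chromosome 5, are shown because both fell and both held the same match. Capitals mark GGNATTTCC, a form of the kappaB site, on either strand, found in 1.06% of the 32851 windows. Of the 37 genes of the NF-kB, TNF and IL-17 list with a promoter entry, 8 held it, against 1.26% of all 27025 genes. That share depends on the choice of the list and on sequence alone, and not on the counts.
Cxcl1, chr5:90890995-90891244, plus strand: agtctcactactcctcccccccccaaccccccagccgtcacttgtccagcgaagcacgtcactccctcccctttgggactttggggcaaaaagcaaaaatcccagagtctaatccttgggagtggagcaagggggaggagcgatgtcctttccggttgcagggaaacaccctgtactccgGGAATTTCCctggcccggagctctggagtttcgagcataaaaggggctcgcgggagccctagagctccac
Cxcl2, chr5:90903649-90903898, plus strand: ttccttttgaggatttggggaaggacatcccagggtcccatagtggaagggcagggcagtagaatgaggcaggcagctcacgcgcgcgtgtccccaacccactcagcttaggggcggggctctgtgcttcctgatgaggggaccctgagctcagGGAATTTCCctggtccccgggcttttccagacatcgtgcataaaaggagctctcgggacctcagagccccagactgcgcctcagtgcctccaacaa

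Immediate early genes, which cells switch on within minutes of a stimulus, leaned lower. Of 50 members, 8 fell and 2 rose past 2-fold, none fell past 3-fold, and the median of −0.46 turned to 0.06 under the pan-endothelial scaling. Fos had 8711 and 5481 reads (−1.05), the nuclear receptor gene Nr4a2 had 884 and 465 reads (−1.30), and Csrnp1 had 387 and 178 reads (−1.50). Egr1 (3540 and 3382 reads, −0.44) and Jun (4023 and 4441 reads, −0.24), transcription factor genes of the same class, did not pass 2-fold. Ctgf and Arc (12 and 72 reads, 2.21) were the 2 that rose. Gdf15, a stress cytokine gene of the p53 list, had 7 and 64 reads (2.81), and Cdkn1a, the p53 target that encodes p21, had 142 and 192 reads (0.06).

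Among 25 heat shock genes, 2 rose past 3-fold and none of the other 23 passed 2-fold in either direction. Hspa1a had 22 and 271 reads (3.24, interval 2.62 to 3.94) and Hspa1b 29 and 319 reads (3.08, interval 2.53 to 3.68). Both encode the inducible chaperone HSP70, and as near-identical copies they can share reads. Dnajb1, another stress-induced chaperone gene, had 386 and 527 reads (0.07), and Hsph1 had 1205 and 1831 reads (0.23). The constitutive relative Hspa8 had 12513 and 25803 reads (0.67). The windows upstream of the 2 copies are shown to make their likeness visible. They shared 247 of 250 bases (98.8%), with 1 match each to the heat shock element core GAANNTTC in capitals, which 6.69% of the 32851 windows hold.
Hspa1a, chr17:34972157-34972406, minus strand: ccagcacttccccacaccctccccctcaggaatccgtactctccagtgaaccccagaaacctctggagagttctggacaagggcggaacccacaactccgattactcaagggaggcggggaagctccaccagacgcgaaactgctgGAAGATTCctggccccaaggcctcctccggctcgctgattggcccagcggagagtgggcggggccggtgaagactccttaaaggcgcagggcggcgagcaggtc
Hspa1b, chr17:34959239-34959488, minus strand: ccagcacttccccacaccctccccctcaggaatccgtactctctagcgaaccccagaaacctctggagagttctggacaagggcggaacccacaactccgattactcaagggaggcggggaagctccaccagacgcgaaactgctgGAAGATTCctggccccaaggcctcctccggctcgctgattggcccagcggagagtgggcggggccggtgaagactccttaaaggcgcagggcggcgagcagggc

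Keratinocyte genes were present at low levels. Of 17 basal layer genes, none passed 3-fold, 1 (5.88%) rose past 2-fold against 6.45% of all genes, and the median was 0.07. Krt5, a keratin of the basal layer, had 317 and 460 reads (0.16), and its partner Krt14 had 180 and 186 reads (−0.33). Krt15, a basal keratin enriched in progenitors, was the 1 that rose, from 281 to 1027 reads (1.49). Of 68 suprabasal and cornified genes, 46 were under 30 reads and 22 were measured. Rare members such as Krt77 passed that minimum through the library in which they are high, so nothing is read from the count or median of the 22. Over all 68 together the log2 ratio of the summed counts was 0.18 (interval 0.12 to 0.25).

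Most of the outer layer genes were rare on both sides. Krt77, a suprabasal keratin, had 2 and 51 reads (4.29, interval 2.37 to 7.38), and Hrnr, a filaggrin-like cornified protein gene, had 3 and 52 reads (3.74, interval 2.11 to 6.06). Scel, a cornified envelope precursor gene, had 26 and 152 reads (2.17). Krt4, a keratin of stratified mucosae and embryonic surface cells, had 111 and 974 reads (2.76). Padi3, a citrullinating enzyme of hair follicles and epidermis, had 21 and 164 reads (2.59). Both are on the list of periderm, hair placode and simple epithelium, which had no common direction. Of its 17 measured genes, 8 were higher and 9 lower, 5 rose and 2 fell past 2-fold, and the median was −0.13. On the suprabasal list, Sprr1a, a cornified envelope gene that many cells also induce under stress, fell from 86 to 24 reads (−2.22). Klf4, a barrier transcription factor that vessels also use, fell from 1627 to 1007 reads (−1.07). The summed level of the suprabasal list was 352.4 CPM in Cont and 416 CPM in the cKO-labelled library, and Dsp (811 and 1605 reads, 0.61) and Klf4 held most of its reads.

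Muscle genes showed no common direction. Of 79 skeletal muscle genes, 44 were under 30 reads and 35 were measured. Of these 35, 4 rose and 6 fell past 2-fold. The median was 0.12, and −0.17 with a minimum of 1 read. Casq2, a calcium store protein gene, had 70 and 35 reads (−1.38), and Unc45b, a myosin chaperone gene, had 204 and 98 reads (−1.44). Against these, the troponin genes Tnnt1 (32 and 125 reads, 1.59) and Tnni2 (12 and 44 reads, 1.50) rose. Tnni2 passed the minimum through the cKO-labelled library. Neb, which encodes the large sarcomere protein nebulin, had 149 and 161 reads (−0.27) and the embryonic myosin gene Myh3 58 and 95 reads (0.33). Smooth muscle and pericyte genes had a median of −0.25, which turned to 0.28 under the pan-endothelial scaling, and 2 of 22 passed 2-fold, both lower. They were Des (193 and 112 reads, −1.16), the intermediate filament gene of muscle, and Gja4, which is also on the arterial list.

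Adipocyte genes were among those that fell most. Of 20 measured members, 7 fell past 2-fold, 6 of these past 3-fold, and none rose past it, with a median of −0.79 that stayed below 0 (−0.26) under the pan-endothelial scaling. Thrsp, a regulator of fat synthesis, had 63 and 5 reads (−4.03, interval −5.71 to −2.73), and Car3, a carbonic anhydrase of fat and muscle that is also on the muscle list, had 1036 and 36 reads (−5.22, interval −5.75 to −4.75). Gpd1, which makes the glycerol backbone of fat, had 198 and 32 reads (−3.01). Genes that are not special to fat cells were nearer the middle, as with the fatty acid synthase gene Fasn (1506 and 1667 reads, −0.23) and the lipoprotein lipase gene Lpl (479 and 649 reads, 0.06). The transcription factor gene Cebpa was higher, with 89 and 213 reads (0.88).

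Cartilage genes had a median above that of all genes, but not under each setting. Of 17 cartilage genes, 5 rose and 1 fell past 2-fold, and the median of 0.58 turned to −0.04 under the macrophage scaling and to −0.09 for the members with at least 100 reads. Hapln1, which links hyaluronan to proteoglycans, had 33 and 229 reads (2.42), and Comp, another cartilage matrix gene, had 47 and 15 reads (−2.03). Of 18 Schwann and neural genes, with a median of 0.35 that turned to −0.26 under the macrophage scaling, 2 rose past 2-fold, namely the myelin gene Pmp22 (564 and 1497 reads, 1.03) and the adhesion gene Cdh19 (22 and 76 reads, 1.41).

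Embryonic globins rose, and no other measured red cell gene rose past 2-fold. Hba-x had 4 and 172 reads (5.05, interval 3.67 to 6.94), and Hbb-y had 18 and 249 reads (3.41, interval 2.72 to 4.19). Both encode globin chains of the primitive red cells of early embryos. Alas2, the first enzyme of heme synthesis in red cells, had 164 and 201 reads (−0.08). Slc4a1, the anion exchanger of the red cell membrane, had 50 and 35 reads (−0.89). Car2, a carbonic anhydrase of red cells and other tissues, fell from 158 to 78 reads (−1.40). Of 10 measured erythroid genes, 2 rose past 2-fold, both of them globins that passed the minimum through the cKO-labelled library. Another 13 of the 23 listed genes were under 30 reads, 7 of them without a read in either library. Most of the red cell program was therefore not measured.

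Growth genes differed little. None of 58 cell cycle genes passed 2-fold, 40 were higher, and the median of 0.11 turned to −0.50 under the macrophage scaling. Mki67, a marker of cycling cells, had 21502 and 32921 reads (0.24), and Top2a, the mitotic topoisomerase, had 7912 and 12457 reads (0.28). Ube2c, which feeds the anaphase-promoting complex, had the highest ratio of the list at 0.79, with 706 and 1582 reads. Of 77 cytosolic ribosomal protein genes, 4 (5.19%) rose past 2-fold against 6.45% of all genes, and none fell past it, with a median of 0.06. The 4 were Rpl7a, Rpl35a, Rpl21 and Rpl34, of which Rpl21 went from 2656 to 7434 reads (1.11).

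Replication-dependent histone genes differed from the cell cycle genes, although both are used in S phase. In this list, built from gene symbols after the values were seen, 24 of 54 measured genes rose and 1 fell past 2-fold, 8 rose past 3-fold, and the median of 0.81 was 0.19 under the macrophage scaling. Hist1h2ad had 194 and 1367 reads (2.44), Hist1h2ab 418 and 2239 reads (2.04), and Hist1h2bn 450 and 2329 reads (1.99). Hist1h4b went against them, with 446 and 146 reads (−1.99). The genes lie in clusters of near-identical copies, so reads of one copy can be counted for another. Their mRNAs end without a poly(A) tail. Their summed level was 2893 CPM in Cont and 5437 CPM in the cKO-labelled library, and in the other libraries of the series it was 2947 and 3674 CPM in cultured BECs and 6.70 and 7.31 CPM in cultured lymphatic endothelial cells (LECs).

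Imprinted and insulin-like growth factor genes were mixed. Of 32 genes of the imprinted growth network, 4 rose and 3 fell past 2-fold, and the median of −0.08 turned to 0.45 under the pan-endothelial scaling. Plagl1, a transcription factor at the head of this network, had 5731 and 2968 reads (−1.33). Peg10, a retrotransposon-derived gene, had 3347 and 1832 reads (−1.25), and Gnas, the stimulatory G protein gene, had 29703 and 18562 reads (−1.06). Igf2 had 22002 and 17932 reads (−0.67) and H19, the noncoding RNA next to it, 60360 and 81191 reads (0.05). Peg3, another imprinted regulator, had 3605 and 7614 reads (0.70). Igfbp7, a binding protein gene of vessels, fell from 4295 to 2647 reads (−1.08), and Stc2, a stanniocalcin that restrains the release of bound IGF, rose from 26 to 161 reads (2.25).

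Hox genes, which record position along the body, were slightly lower. Of 24 measured genes, 6 fell past 2-fold and none rose past it, with a median of −0.56 that was −0.03 under the pan-endothelial scaling. Hoxb3 had 148 and 62 reads (−1.63). The most abundant, Hoxd8, had 764 and 872 reads (−0.19). Interferon genes did not move together, since 33 of 36 stayed within 2-fold. Ifi44 (100 and 20 reads, −2.70) and its neighbour Ifi44l (33 and 1 reads, −5.42) were lower, and H2-K1, a class I antigen gene, was higher (323 and 1009 reads, 1.27).

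Some of the largest differences belonged to no list. Tcf24, a helix-loop-helix factor gene, fell from 863 to 10 reads (−6.81), and Cftr, the chloride channel gene of epithelia, rose from 2 to 171 reads (6.04, interval 4.16 to 9.10). Bex4 rose from 4 to 227 reads (5.45) and Gm1966 from 5 to 222 reads (5.09). Cwc22, a spliceosome factor gene on chromosome 2 at 77881159 to 77946375 of mm10, had 7290 reads in Cont and 958 in the cKO-labelled library, a ratio of −3.31 (interval −3.40 to −3.21). In the 4 cultured libraries Cwc22 had 64.1 to 90.2 CPM, close to the 86.4 CPM of the cKO-labelled library and not to the 822 CPM of Cont. Tmem8 had 1888 and 564 reads (−2.12), Palmd 1356 and 534 reads (−1.72), and Gimap4, a GTPase gene of lymphocytes and vessels, 2375 and 1028 reads (−1.59). Pkhd1l1, a large membrane protein gene, had 335 and 45 reads (−3.27), and Serpina3h had 106 and 4 reads (−5.11) in a family of similar serpins that can share reads. On the other side, Nxpe4 had 21 and 287 reads (3.39) and Atp8b5, a lipid flippase gene, 6 and 137 reads (4.14). Neat1, the noncoding RNA that builds paraspeckles, rose from 4448 to 16713 reads (1.53). Mir6236 fell from 1160 to 351 reads (−2.10), and the predicted genes Gm8615 (165 and 10 reads, −4.42), Gm7120 (97 and 11 reads, −3.52) and Gm14403 (567 and 111 reads, −2.73) fell as well. On the list of structural noncoding RNA, Lars2, a mitochondrial leucyl-tRNA synthetase gene, rose from 804 to 4493 reads (2.10), while Rprl2 had 124 reads and Rprl3 had 119 reads in Cont and neither had a read in the cKO-labelled library.

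The called genes were set against the cultured endothelial controls of the series, Cont BECs and Cont LECs. Under 1 CPM in both cultured controls were 227 of the 349 higher genes and 70 of the 122 lower genes (57.4%), against 16.6% of all 13745 genes. Among genes with at least 100 normalised counts the shares were 55.7% of 122 and 46.2% of 52, against 8.07% of 10212. Seen from the other direction, the 8450 genes with at least 10 CPM in both cultured controls had 30 called higher (0.355%) and 17 lower (0.201%), and the 2281 genes under 1 CPM had 227 (9.95%) and 70 (3.07%). Genes that are low in culture also have fewer reads in skin and wider intervals, and genes of vessels can also be low in culture, so this split does not name the cell of origin. Aplnr is such a gene, with 498 CPM in Cont skin BECs and no read in either cultured control.

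Defining markers behaved in the same way. Mrc1 had 0.153 to 0.502 CPM in the 4 cultured libraries, Adgre1 and Fcgr2b had no read there, and Cpa3 had at most 0.129 CPM. The macrophage list summed to 1371 to 2747 CPM in culture, where the lysosomal gene Ctsd alone had 232 to 614 CPM, and the mast cell list to 616 to 958 CPM, where Kit alone had 65.5 to 397 CPM. The heme, metallothionein and Nrf2 list was different, at 3237 CPM in Cont skin BECs, 6830 CPM in the cKO-labelled library and 7172 to 14436 CPM in culture.

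**Figure D5:**
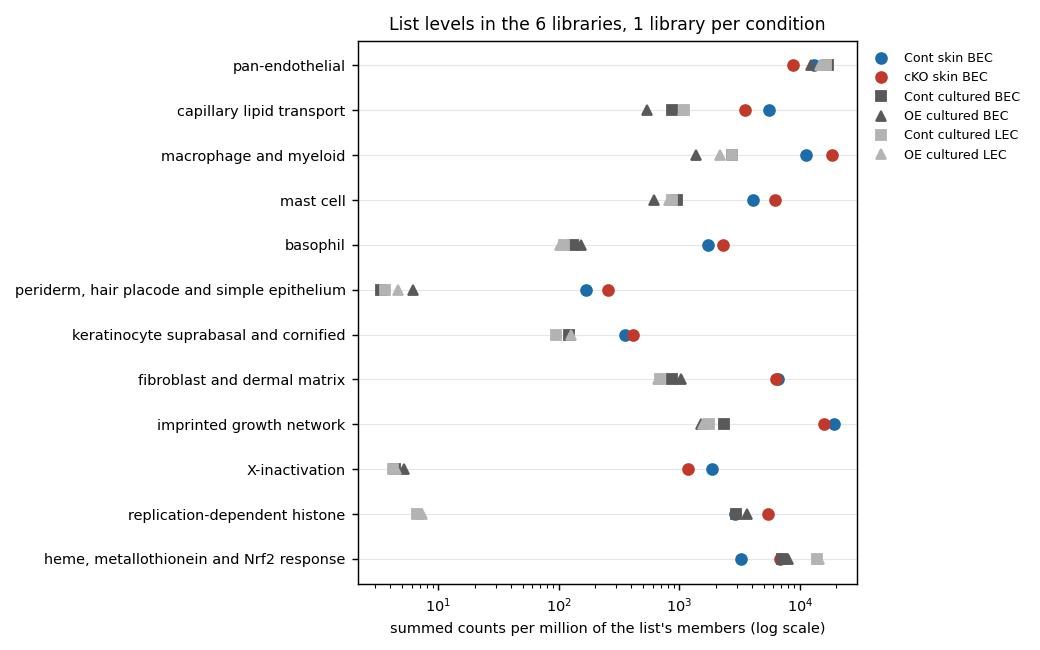
Summed CPM of the members of 12 gene lists (rows) in the 6 libraries on a log scale, 1 symbol per library and 1 library per condition. Circles are the skin libraries, squares and triangles the cultured libraries. The skin libraries lie above all cultured libraries for macrophage, mast cell, keratinocyte and fibroblast lists and below them in the heme, metallothionein and Nrf2 list, with Cont lowest.

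The spread of the skin pair was set beside the other pairs of the series. By the same rule, overexpression of Dot1l in cultured BECs gave 172 genes past 3-fold higher and 250 lower of 12015, and in cultured LECs 103 higher and 43 lower of 11971. With 1 library per condition these counts describe pairs of libraries that also differ in depth. Across 5 bins of GC content the median ratio of the skin pair went from −0.11 in the lowest to 0.11 in the highest bin, and across 5 bins of transcript length from 0.08 in the shortest to −0.10 in the longest. The medians of several lists, such as cell cycle (0.11) and ribosomal protein genes (0.06), were no larger than these, and the part of GC content and length in the list values was not tested.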

How the data were processed

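RNA-seq libraries of Cont and cKO skin BECs, 1 each from pooled embryos, were taken with 4 cultured endothelial libraries for reference. The authors built them with ScriptSeq, trimmed adapters with skewer, aligned reads to mm10 with STAR, counted reads per gene with VERSE and deposited raw counts. Whether strand was used is not given in the sources used here. Total counts are 8863349 and 11084686. Counts were normalised on the skin pair by median of ratios, as in DESeq2. A floor of 3 reads bounds folds against a library without reads. No test was run, since each condition has 1 library, and the steps were tested on simulated data. Named genes are Dot1l, the 15 largest rises and falls past 3-fold at 100 normalised counts, the 10 largest past 2-fold at 1000, and list members. Positions come from GENCODE M21, and promoter windows from RefSeq, GRCm38.p6. No entry was found for Hmox1. The genes described and all lists were chosen with earlier results of these data known, 4 lists after the values were seen, and motifs with the gene values known. Alternatives were TMM, total counts, 6-library factors, scaling to the pan-endothelial median, minimums of 10, 100 and 1 read, a pseudocount of 1, no small RNA or predicted genes, and the interval limit. Scaling to the macrophage median, leaving out marker genes and a mast cell list without basophil genes were added after seeing the data. Python 3.11.15, numpy 2.4.6, pandas 2.3.3, scipy 1.17.1, R 4.3.3, edgeR 4.0.16 and DESeq2 1.42.0 were used.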

Additional observations from a re-analysis of the deposited data

How the results depend on the processing

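The counts of called genes, 349 higher and 122 lower past 3-fold and 886 and 406 past 2-fold, stayed within 1.5 times under TMM factors, total counts, factors from all 6 libraries and a pseudocount of 1, and past 3-fold also without small RNA and predicted genes and without marker genes. Scaling the pan-endothelial median to 0 gave 803 and 55 past 3-fold, 2320 and 137 past 2-fold, and 21 lists with a median above 0.5 and 1 below −0.5 in place of 6 and 7. Scaling the macrophage median to 0, chosen after seeing the data, gave 171 and 432, 340 and 2388, and 1 and 28 lists. It turned the medians of cartilage and bone (−0.038) and basophil genes (−0.032), and a minimum of 100 reads turned that of cartilage and bone (−0.094). A minimum of 10 reads gave 659 and 265 past 3-fold and 1429 and 674 past 2-fold, 100 reads gave 158 and 57 and 455 and 238, and 1 read gave 1833 and 1160 and 2741 and 1748. Requiring the nearer interval limit past 3-fold left 133 and 49. Under 0.1 CPM in both cultured controls were 41.3% of higher and 34.4% of lower genes. In cultured BECs a minimum of 100 reads left 60 higher and 163 lower genes, and in cultured LECs 64 and 26. Fewer or more genes enter under another minimum; the cause of the other differences was not tested. No paired analysis was possible because each condition has 1 library, and for the same reason no library could be left out. Depth limits genes near 30 reads, where intervals span about 1 log2 unit to either side.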
